A study of Homo sapiens with 18 samples.

Results

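Transforming growth factor beta (TGF-beta) signaling was examined through 10 genes in xenograft tumors of a human mesothelioma line in which YAP1 can be silenced. The genes were the ligands TGFB1, TGFB2 and TGFB3, the receptors TGFBR1, TGFBR2 and TGFBR3, the signal carrier SMAD3, the inhibitors SMAD7 and SKIL, and the matrix protein gene TGFBI. They were chosen by symbol, as 10 of the 20257 gene identifiers of the deposited table. The rule used no measured value, but earlier results of these data were known when these genes were chosen. The question was how their levels moved while an shRNA against YAP1 was induced by doxycycline.

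TGF-beta ligands are secreted in a latent form that is held in the matrix until it is released. The active dimer is bound by the type II receptor TGFBR2, with help from the coreceptor TGFBR3, and the type I receptor TGFBR1 then phosphorylates SMAD2 and SMAD3, which enter the nucleus with SMAD4 and switch on target genes. Among these targets are SMAD7 and SKIL, which feed back on the pathway, and genes of the extracellular matrix, so TGF-beta is known in mesothelioma and in tumor stroma for matrix deposition.

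MSTO-211H-SH-YAP1 is the established pleural mesothelioma line MSTO-211H, stably transfected with a doxycycline-dependent construct that encodes a short hairpin RNA (shRNA) against YAP1. The cells were implanted under the skin of SCID mice, which lack mature lymphocytes but keep other host leukocytes, fibroblasts and vessels, and the tumors grew with 5% glucose in the drinking water. Values of 18 tumors were analysed, each from 1 mouse: 5 sampled before doxycycline (0 h), and 4, 5 and 4 tumors labelled 24 h, 96 h and 216 h of doxycycline at 0.5 mg/ml with 5% glucose. All tumors, the 0 h controls included, carried the construct, and tumors with a control hairpin were not analysed here. For the last group the sources differ, since a course of 96 h with a later washout is described as well. Which treatment the 4 tumors had is therefore not settled, and the group is named by its label. Mice of different times were also kept in different cages, and effects of cage and of time cannot be told apart.

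Levels were read as FPKM, fragments scaled to the length of the gene and to the mapped total of the library, from exome-capture RNA libraries. The 13 mitochondrially encoded genes held between 74.9% and 84.8% of the FPKM sum of a tumor, and their share at 216 h (74.9% to 76.0%) lay below that of every other tumor. YAP1 was between 4.82 and 10.2 FPKM at 0 h and between 4.60 and 8.16 at 24 h. It was between 3.39 and 6.81 at 96 h and between 5.60 and 8.85 at 216 h. Its means were 7.26, 5.81, 4.77 and 7.18 FPKM in time order. The log2 fold change against 0 h was -0.27 at 24 h, -0.52 at 96 h and 0.0004 at 216 h. YAP1 passed limma's test against 0 h at no time (adjusted p = 0.742, 0.221 and 0.999 in time order), and each group overlapped that of 0 h. By RT-qPCR, the study reports lower YAP1 mRNA in these xenografts at every later time point. The FPKM values of the last group did not show this, and the cause was not tested. Of the known target genes of YAP1, CYR61 was lower than at 0 h by 0.42 on the log2 scale at 96 h (log2 fold change -0.42, adjusted p = 0.0353) and by more at 216 h (-0.86, adjusted p = 2.47e-05). It was not called at 24 h (-0.15, adjusted p = 0.697). CTGF was not called at 24 h (-0.45, adjusted p = 0.505) or at 96 h (-0.36, adjusted p = 0.4365) and was lower at 216 h (-0.94, adjusted p = 0.00253). Of 10 mesothelial markers, PDPN was listed at 0 in every tumor, and WT1, UPK3B, THBD and KRT19 had means under 1 FPKM at 0 h and at 216 h, while VIM, KRT8 and KRT18 had means of 1359, 184 and 191 FPKM at 0 h. The number of genes listed at 0 split the tumors, with 10 of them above and 8 below a gap between 5179 and 5593 such genes. The first set held all 5 tumors of 0 h, 2 of 24 h, none of 96 h and 3 of 216 h, so values at 216 h were also compared with 0 h among tumors of that set alone. Between 96 h and 0 h, effects of time and of this split cannot be told apart.

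The changes at 216 h were the main ones. TGFB3, SMAD7 and TGFBR1 were 3.95, 3.26 and 2.12 times as high as at 0 h on the mean FPKM scale, and TGFBR3, SMAD3 and TGFBR2 were higher by smaller factors. TGFB1, the ligand with the highest level, had its highest mean at 96 h and its highest single value, 56.0 FPKM, at 24 h. Its rise at 96 h missed the threshold (limma's adjusted p = 0.0672) and cannot be told apart from the split by genes at 0. At 24 h and at 96 h, 0 of the 9 members that could be tested were called. Of all tested genes, 0.00879% were called higher and 0.149% lower at 24 h, and 0.316% and 1.06% at 96 h. The promoters of the 3 members with the largest rise in the last group are printed here. Each sequence is RefSeq's for GRCh38.p14 and holds the 250 bases before the annotated start site nearest to the start of the table's gene, 5′ to 3′ on the gene's strand. Capitals mark the letters CAGAC or GTCTG, which are the same element on either strand and are known to be bound by SMAD3 and SMAD4. SMAD7 is shown for chr18:48950966-48951215, TGFB3 for chr14:75981996-75982245 and TGFBR1 for chr9:99104833-99105082. SMAD7 and TGFB3 lie on the minus strand and TGFBR1 on the plus strand. The annotated start site is 6 bases from the start of the table's gene for TGFBR1, 254 for SMAD7 and 804 for TGFB3. The TGFB3 stretch is thus not directly before the gene span measured here. It lies within the span of another row of this gene, which is described below.
SMAD7: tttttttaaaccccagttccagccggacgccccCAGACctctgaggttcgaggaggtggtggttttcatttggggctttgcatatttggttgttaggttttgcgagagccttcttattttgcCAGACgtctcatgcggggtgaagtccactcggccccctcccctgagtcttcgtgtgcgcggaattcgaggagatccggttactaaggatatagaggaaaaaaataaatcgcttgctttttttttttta
TGFB3: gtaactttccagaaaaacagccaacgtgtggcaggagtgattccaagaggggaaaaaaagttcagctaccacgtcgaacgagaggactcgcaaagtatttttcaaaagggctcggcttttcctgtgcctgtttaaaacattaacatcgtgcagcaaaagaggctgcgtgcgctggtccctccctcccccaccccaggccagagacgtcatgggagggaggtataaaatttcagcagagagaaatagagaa
TGFBR1: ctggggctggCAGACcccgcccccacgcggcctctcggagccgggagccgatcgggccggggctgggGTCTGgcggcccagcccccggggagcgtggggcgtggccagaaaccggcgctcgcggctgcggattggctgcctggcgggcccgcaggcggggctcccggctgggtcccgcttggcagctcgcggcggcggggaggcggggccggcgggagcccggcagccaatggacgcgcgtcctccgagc

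The SMAD7 and TGFBR1 stretches hold these letters 2 times each, and the TGFB3 stretch does not hold them. Over all 25 RefSeq start sites of the 10 genes, 11 have CAGAC or GTCTG in the 250 bases before them, and they belong to 6 genes. The same letters stand before 38% of the 35116 start sites in the table, so a match is common. The 8-base palindrome GTCTAGAC, also a SMAD element, stands before 0.182% of all start sites and before 0 of the 25. GGAATG or CATTCC, the element read by the TEAD partners of YAP1, stands before 11.9% of all start sites and before 2 of the 25, which belong to 2 genes, 1 of them TGFB2. TGANTCA, the AP-1 element, stands before 6.57% of all and before 1 of the 25. A match is a description of the letters and not a site in use.

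In the table's coordinates (GRCh38, 1-based, whole gene spans with exons, introns and UTRs), TGFB1 (ENSG00000105329.9) lies at chr19:41330323-41353911, TGFB2 (ENSG00000092969.11) at chr1:218346235-218444619 and TGFB3 (ENSG00000119699.7) at chr14:75958099-75981191. TGFBR1 (ENSG00000106799.12) lies at chr9:99105089-99154192, TGFBR2 (ENSG00000163513.17) at chr3:30606502-30694142 and TGFBR3 (ENSG00000069702.10) at chr1:91680343-91906335. SMAD3 (ENSG00000166949.15) lies at chr15:67065845-67195195, SMAD7 (ENSG00000101665.8) at chr18:48919853-48950711, SKIL (ENSG00000136603.13) at chr3:170357685-170396835 and TGFBI (ENSG00000120708.16) at chr5:136028895-136063817.

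**Figure D1:**
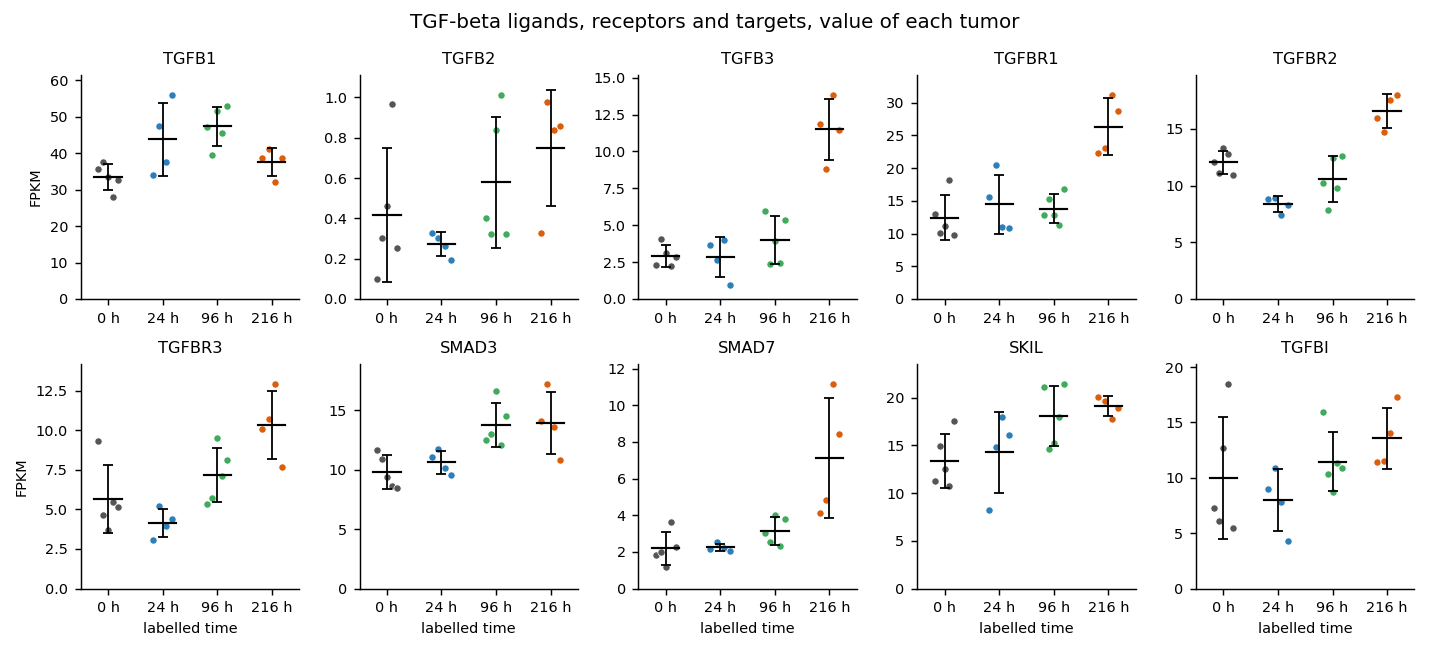
FPKM (vertical axes, from 0) of the 10 genes in each tumor (points) by labelled time, with the mean (bar) and the SD (whiskers) of the 5, 4, 5 and 4 tumors. TGFB3, TGFBR1, TGFBR2 and SMAD7 had all 4 tumors of 216 h above all tumors of 0 h and of 96 h.

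Among the ligands, TGFB1 was the most abundant, as the gene of the family's founding member, which most cell types make. In the 5 tumors of 0 h it was at 35.7, 37.6, 33.5, 28.1 and 32.7 FPKM. At 24 h the 4 tumors had 34.1, 47.5, 37.6 and 56.0 FPKM, and at 96 h the 5 tumors had 47.3, 39.5, 51.6, 45.5 and 52.9 FPKM. All 5 tumors of 96 h were above every tumor of 0 h, while the groups of 24 h and 0 h overlapped. The 4 tumors of 216 h had 38.7, 41.1, 32.1 and 38.6 FPKM, back among or near the 0 h values. The mean was 33.5 ± 3.58 FPKM (SD, n = 5) at 0 h, 43.8 ± 9.92 (n = 4) at 24 h, 47.3 ± 5.34 (n = 5) at 96 h and 37.6 ± 3.87 (n = 4) at 216 h. The log2 fold change at 96 h was 0.49 ± 0.13 (SE) and missed limma's threshold (adjusted p = 0.0672). It passed after the mitochondrially encoded genes were left out of the scaling (0.53, adjusted p = 0.0128). Quantile normalization (0.56, adjusted p = 0.0121) and median scaling (0.47, adjusted p = 0.0233) also put it past the threshold. From 96 h to 216 h TGFB1 changed by -0.32 (adjusted p = 0.129), and the same scalings put this fall past the threshold, with values from -0.56 to -0.49 (adjusted p = 0.00659 to 0.0142). Not all alternatives did so. Over the 9 other than leaving out 1 tumor, limma's adjusted p ran up to 0.527 for the rise at 96 h and up to 0.621 for this fall. The rise at 96 h also cannot be told apart from the split by genes at 0. In bulk RNA, fewer cells that express a gene and less RNA of it per cell cannot be told apart, and this holds for every level given here.

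TGFB3, a ligand known for its part in palate closure and wound repair, changed more than any other member. At 0 h it was at 2.32, 4.06, 3.11, 2.21 and 2.86 FPKM. The tumors of 24 h had 3.68, 2.66, 3.97 and 0.973 FPKM and those of 96 h had 5.96, 2.36, 3.95, 2.41 and 5.34 FPKM. At 216 h the values were 11.9, 8.81, 13.8 and 11.4 FPKM, and the lowest of these was above the highest of the other 14 tumors. The mean went from 2.91 ± 0.740 FPKM (SD, n = 5) at 0 h to 11.5 ± 2.07 (n = 4) at 216 h. The log2 fold change was 1.68 ± 0.26 (SE, adjusted p = 0.000240) against 0 h and 1.37 ± 0.26 (adjusted p = 0.00339) against 96 h. Within the tumors with more genes at 0, the mean of 3 tumors of 216 h was 290% above that of the 5 of 0 h (p = 0.0357 by the two-sided exact permutation test, which can go no lower with 3 and 5 tumors).

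The table holds a second row with the identifier of TGFB3. The row used above spans chr14:75958099-75981191, the locus of the coding transcripts. The other, chr14:75981243-75982991, matches the span of a non-coding transcript of the gene in GENCODE release 29. This upstream row was at 1.99, 0.988, 0.856, 1.22 and 1.42 FPKM at 0 h and at 3.75, 4.07, 3.76 and 3.24 FPKM at 216 h. Again every tumor of 216 h was above every tumor of 0 h, and the log2 fold change was 1.05 ± 0.18 (SE, adjusted p = 0.000519). Neighboring rows of 1 gene can share fragments, so both rows are not independent measurements.

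TGFB2, the ligand known for its role in heart and eye development, stayed near the floor. Its mean was 0.416 ± 0.334 FPKM (SD, n = 5) at 0 h, 0.272 ± 0.0591 (n = 4) at 24 h, 0.579 ± 0.324 (n = 5) at 96 h and 0.750 ± 0.288 (n = 4) at 216 h, and only 1 tumor, at 96 h, exceeded 1 FPKM. It was therefore left out of the limma fit and tested alone. The 216 h and 0 h groups overlapped, with a log2 fold change of 0.32 (exact permutation test, two-sided, p = 0.175). Against 0 h the values at 24 h and 96 h were -0.13 (exact permutation test, p = 0.556) and 0.16 (p = 0.405), and from 96 h to 216 h the value was 0.16 (exact permutation test, p = 0.540). With 4 and 5 tumors this test can give no p below 0.0159, and with 5 and 5 none below 0.00794, and these 4 p-values are not adjusted.

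All 3 receptors were called higher in the last group than at 0 h, beside 19.7% of all tested genes. None was called at 24 h or at 96 h, where few of all tested genes were called either. TGFBR1, the kinase that phosphorylates SMAD2 and SMAD3, was at 12.9, 10.1, 11.1, 18.1 and 9.83 FPKM at 0 h. It was at 15.6, 20.4, 11.1 and 10.8 FPKM at 24 h and at 12.8, 15.2, 12.9, 11.3 and 16.8 FPKM at 96 h. At 216 h the 4 tumors had 22.2, 23.1, 31.2 and 28.7 FPKM. These 4 were above all others, and the 3 earlier groups overlapped one another. The log2 fold change was 1.05 ± 0.19 (SE, adjusted p = 0.000881) against 0 h and 0.88 ± 0.19 (adjusted p = 0.00746) against 96 h.

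TGFBR2, which binds the ligand and starts signaling, was lower at 24 h than at 0 h in every tumor. The 0 h tumors had 12.1, 11.1, 13.3, 12.8 and 10.97 FPKM, and the 24 h tumors had 8.83, 8.93, 7.41 and 8.25 FPKM. Although these groups did not overlap, the log2 fold change of -0.48 ± 0.12 (SE) missed the threshold over all genes (adjusted p = 0.155). Both tumors of 24 h with more genes at 0 were also below all 5 of 0 h, by 26.2% on the mean (p = 0.0952 by the exact permutation test, which can go no lower with 2 and 5 tumors). At 96 h the values of 10.2, 7.86, 12.4, 9.77 and 12.6 FPKM lay between the earlier groups and overlapped both. The 216 h tumors had 16.0, 14.7, 17.5 and 18.0 FPKM, all above every earlier tumor. Against 0 h this was a log2 fold change of 0.43 ± 0.12 (SE, adjusted p = 0.0157), and against 96 h one of 0.61 ± 0.12 (adjusted p = 0.00409). The rise from 0 h did not pass once the mitochondrially encoded genes were left out of the scaling (0.32, adjusted p = 0.0572) or with quantile normalization or median scaling.

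TGFBR3 (betaglycan), the coreceptor that presents ligand to TGFBR2, was more variable. At 0 h it was at 9.33, 4.64, 3.67, 5.48 and 5.14 FPKM, so 1 tumor stood above the other 4. The means were 4.15 ± 0.895 FPKM (SD, n = 4) at 24 h and 7.14 ± 1.71 (n = 5) at 96 h. At 216 h it was at 10.1, 10.7, 12.9 and 7.66 FPKM, and 3 of 4 tumors exceeded all of 0 h. Its log2 fold change was 0.80 ± 0.21 (SE, adjusted p = 0.00946) against 0 h, while that against 96 h was 0.48 ± 0.21 (adjusted p = 0.144).

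SMAD3, which carries the signal from TGFBR1 to the nucleus, was the member besides TGFB1 that stood apart at 96 h. It was at 11.7, 10.9, 9.38, 8.63 and 8.49 FPKM at 0 h and at 12.5, 13.0, 16.7, 12.1 and 14.5 FPKM at 96 h. All 5 tumors of 96 h were above every tumor of 0 h, but the log2 fold change of 0.45 ± 0.12 (SE) did not pass (adjusted p = 0.0892). It passed with quantile normalization (0.47, adjusted p = 0.0497) and without the mitochondrially encoded genes in the scaling (0.50, adjusted p = 0.0469). Over the 9 alternatives other than leaving out 1 tumor, limma's adjusted p for SMAD3 at 96 h ran up to 0.323. The split by genes at 0 limits the 96 h value of SMAD3 in the same way. At 216 h it was at 14.1, 17.2, 13.6 and 10.8 FPKM, 3 of them above all of 0 h. That rise of 0.46 ± 0.13 (SE) passed (adjusted p = 0.0162), although its unadjusted limma p of 0.00246 was no smaller than the 0.00187 at 96 h, since the adjustment runs over all genes of a comparison. It no longer passed without tumor 2 of 216 h (adjusted p = 0.0644), with the fit of both groups alone (adjusted p = 0.0556) or with quantile normalization or median scaling, where it was 0.26 and 0.22. From 96 h to 216 h SMAD3 differed by 0.011 ± 0.13 (SE, adjusted p = 0.970).

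SMAD7, the inhibitory SMAD that binds TGFBR1 and is itself a direct target of SMAD3, had the second largest change. Its values at 0 h were 1.84, 2.01, 1.19, 3.65 and 2.28 FPKM. They were 2.18, 2.54, 2.24 and 2.05 FPKM at 24 h and 3.02, 2.52, 4.02, 2.31 and 3.80 FPKM at 96 h. In the 216 h tumors it was at 4.14, 4.83, 11.1 and 8.46 FPKM. Each of these was above each earlier tumor, and the 4 spread over more than the earlier groups did. Against 0 h the log2 fold change was 1.31 ± 0.23 (SE, adjusted p = 0.000748). The rise from 96 h, 0.91 ± 0.23 (adjusted p = 0.0180), missed the threshold when tumor 3 or 4 of 216 h or tumor 2 of 96 h was left out, with adjusted p up to 0.0741.

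SKIL (SnoN), a corepressor that holds SMAD3 and SMAD4 inactive and is degraded when the pathway is switched on, had a less certain change. It was at 11.2, 14.9, 12.5, 10.7 and 17.5 FPKM at 0 h and at 20.0, 19.7, 17.7 and 18.9 FPKM at 216 h. The 4 tumors of 216 h were above the 5 of 0 h, the nearest of both groups at 17.7 and 17.5 FPKM, and the log2 fold change of 0.50 ± 0.19 (SE) missed the threshold (adjusted p = 0.0572). It passed with the fit of both groups alone (adjusted p = 0.0369) and without tumor 5 of 0 h (adjusted p = 0.0310).

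TGFBI, a secreted matrix protein whose gene was named for its induction by TGF-beta, had the largest SD in FPKM at 0 h (5.51, n = 5). Its 0 h values were 7.26, 6.07, 12.7, 18.4 and 5.49 FPKM. At 216 h they were 11.4, 11.5, 14.0 and 17.3 FPKM, within the range of 0 h. Its log2 fold change was 0.52 ± 0.29 (SE, adjusted p = 0.203), or past the threshold without tumor 4 of 0 h (adjusted p = 0.0411).

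**Figure D2:**
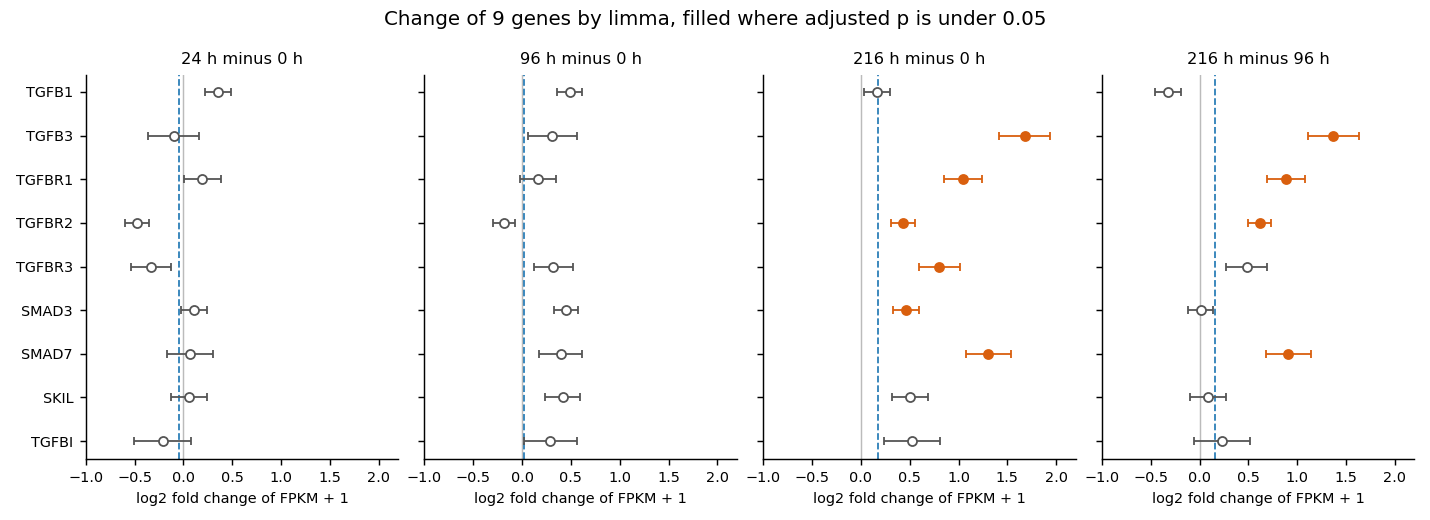
Log2 fold change of FPKM + 1 (horizontal axes) with its SE for 9 genes in 4 comparisons, filled orange where limma's adjusted p is under 0.05. The dashed line is the median of all 11379 tested genes, at -0.043, 0.019, 0.17 and 0.16 from left to right, and 6 genes pass at 216 h against 0 h.

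Counted together, 9 of the 10 genes passed the filter of 1 FPKM in 4 tumors, and TGFB2 did not. At 24 h, 0 of the 9 were higher and 0 lower than at 0 h, where 0.00879% of all tested genes were higher and 0.149% lower. At 96 h it was again 0 and 0, against 0.316% and 1.06% of all tested genes. At 216 h, 6 of the 9 were higher than at 0 h and 0 lower, while 19.7% of all tested genes were higher and 3.6% lower. From 96 h to 216 h, 4 of the 9 were higher (TGFB3, TGFBR1, TGFBR2 and SMAD7) and 0 lower, against 10.3% and 0.747% of all. The median log2 fold change of the 9 was 0.52 at 216 h against 0 h, beside 0.17 for all tested genes. At 96 h it was 0.32, beside 0.019. The comparisons with 0 h share the same 5 control tumors, and those with 216 h the same 4 tumors, so they are not independent.

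The whole table moved at 216 h as well. The median of all tested genes was 0.17 above that of 0 h on the log2 scale, and relative to it TGFB3 was higher by 1.51, SMAD7 by 1.13, TGFBR1 by 0.87, TGFBR3 by 0.63, SMAD3 by 0.29 and TGFBR2 by 0.26. Genes called higher made up 84.6% of all calls as deposited, 68.1% without the mitochondrially encoded genes in the scaling, 51.4% with quantile normalization and 43.8% with median scaling. From 96 h to 216 h these shares were 93.3%, 66.1%, 54.6% and 48.9%. Against 0 h, TGFB3, TGFBR1, TGFBR3 and SMAD7 were called higher in the last group under all 4 scalings. There SMAD3 and TGFBR2 kept their sign under all 4 and were called only as deposited. TGFB1 changed sign, from 0.16 as deposited to -0.092 with median scaling, and passed under neither.

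**Figure D3:**
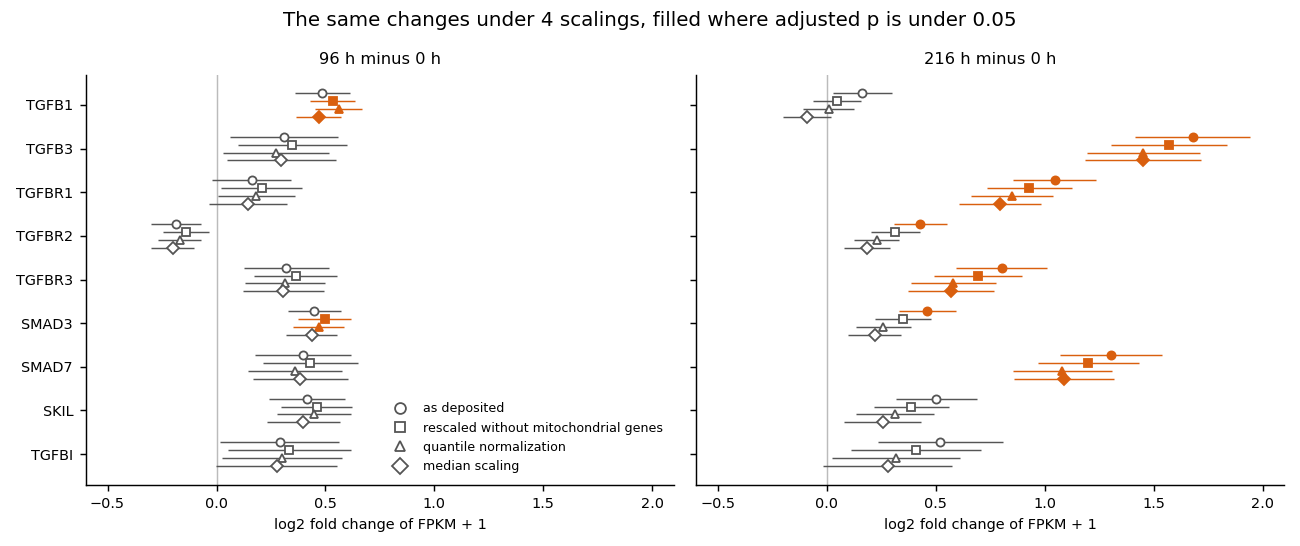
Log2 fold change of FPKM + 1 (horizontal axes) with its SE for 9 genes at 96 h and at 216 h against 0 h under 4 scalings, given by marker shape and filled where limma's adjusted p is under 0.05. TGFB3, TGFBR1, TGFBR3 and SMAD7 are filled at 216 h under all 4, and TGFB1 is filled at 96 h under the 3 other than the deposited one.

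In the 0 h tumors, per gene length, the order of the mean levels was TGFB1, SKIL (13.4 FPKM), TGFBR1 (12.4), TGFBR2 (12.03), TGFBI (9.99), SMAD3 (9.80), TGFBR3 (5.65), TGFB3 (2.91), SMAD7 (2.19) and TGFB2 (0.416). TGFB1 lay above all the others in each tumor. From SKIL down to SMAD7 the ranges of all neighbors in this order overlapped, and TGFB2 lay below SMAD7 without overlap. At 216 h TGFBR1 (26.3 FPKM) stood second, next to SKIL (19.1), and TGFB3 (11.5) had come up to TGFBR3 (10.3). Because the libraries were captured with probes, levels of different genes also depend on their probes, which was not tested.

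The genes whose log2 levels followed each member most closely over the 18 tumors are given as a description, since they share the tumors and the scaling. For TGFB3 they were SPON1, ISLR and MRC2, with Pearson's r from 0.949 to 0.953. TGFBR1 ran closest to PRKCB, MPEG1 and HLA-DQB1 (r from 0.932 to 0.938), and SMAD7 to CPSF6, SLC4A4 and ZNF865 (r from 0.927 to 0.947). TGFBR2 was nearest to RRBP1, ZNF503 and STK38L, and TGFBR3 to ADGRA2, SETD3 and DPP8, all with r above 0.9. The nearest genes of SMAD3 (FBXW4), SKIL (FBXL2), TGFBI (TMEM57) and TGFB1 (BCAR1) had r of 0.875, 0.840, 0.831 and 0.846. Within groups, after each group's mean was removed, r was 0.59 between TGFBR1 and SMAD7 but 0.099 between TGFB3 and TGFBR1 and 0.23 between TGFB3 and SMAD7, against 0.85, 0.73 and 0.79 over all tumors.

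The wider pathway was followed in 6 lists of 74 genes, of which 64 could be tested. At 24 h, 0 of the 64 were called, beside 0.00879% of all tested genes called higher and 0.149% lower. At 96 h, 0 were higher and 1 lower than at 0 h, beside 0.316% and 1.06% of all. At 216 h, 23 were higher and 5 lower than at 0 h, shares of 35.9% and 7.81% beside the 19.7% and 3.6% of all tested genes. Their median log2 fold change was 0.32, beside 0.17. From 96 h to 216 h, 17 were higher and 0 lower, beside 10.3% and 0.747% of all. Of these 17, 10 were still called with median scaling, 10 with quantile normalization, 11 without the mitochondrially encoded genes and 2 with a covariate for the tumors with more genes at 0. In the same order, 321, 378, 418 and 43 of all 11379 tested genes were called higher from 96 h to 216 h. Under quantile normalization 17 of the 23 and under median scaling 15 of the 23 were still called higher against 0 h, beside 1037 and 992 of all 11379. All 5 were still called lower under both, beside 980 and 1274 of all.

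Of 14 genes that store and release the latent ligand, 10 could be tested. LTBP3, LTBP4, FBN1 and ITGAV were higher at 216 h than at 0 h and 0 were lower, beside 19.7% and 3.6% of all tested genes, and 6 did not pass. LTBP3 and LTBP4 encode proteins that tether latent TGF-beta to the matrix. Their log2 fold changes were 1.64 (adjusted p = 0.000149) and 1.36 (adjusted p = 0.000183), from means of 7.15 to 23.9 and of 23.3 to 60.1 FPKM. ITGAV, a subunit of the integrins that release the ligand, was higher by 0.75 (adjusted p = 0.0111), but by 0.49 with median scaling, which did not pass (adjusted p = 0.0755). THBS1, another activator, was not past the threshold (-0.46, adjusted p = 0.182).

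Of 5 accessory receptors and anchors, ACVRL1 and ZFYVE9 were higher at 216 h and ENG was lower, beside 19.7% and 3.6% of all tested genes. The calls of ACVRL1 and ZFYVE9 were lost under all 3 other scalings (adjusted p from 0.052 to 0.367). ENG, the coreceptor endoglin of endothelial and mesenchymal cells, was the list gene already lower at 96 h. It was at 18.0, 19.3, 18.8, 20.4 and 16.5 FPKM at 0 h and at 13.2, 12.5, 13.1, 11.7 and 12.9 FPKM at 96 h, with no overlap (log2 fold change -0.52, adjusted p = 0.0102). At 216 h it stayed low, with a log2 fold change of -0.50 against 0 h (adjusted p = 0.00207). With a covariate for the tumors with more genes at 0, ENG was not called at 96 h (-0.57, adjusted p = 0.165) and was at 216 h.

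Of the 3 other SMADs, SMAD4, the shared partner of the receptor SMADs, was higher at 216 h (log2 fold change 0.78, adjusted p = 0.000725). SMAD2 (0.16, adjusted p = 0.585) and SMAD6 (0.55, adjusted p = 0.0641) did not pass. Among 11 negative regulators, DCN, PMEPA1, PPM1A and SKI were higher and SMURF2 was lower, again beside 19.7% and 3.6%. SKI was not called under the 3 other scalings or with the covariate (adjusted p from 0.0583 to 0.231). PMEPA1, a target gene that feeds back on the receptor SMADs, went from a mean of 39.1 to 86.8 FPKM (log2 fold change 1.14, adjusted p = 0.00170). In the activin arm, 8 of 12 genes could be tested, and GDF11 and ACVR2A were higher, beside 19.7% of all tested genes, and neither was called under the 3 other scalings.

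The textbook target genes were split. Of 27 tested, 10 were higher and 3 lower at 216 h than at 0 h, and 14 did not pass. These are shares of 37.0% and 11.1%, beside 19.7% and 3.6% of all tested genes. On the log2 scale the largest rises were those of COL1A2, POSTN, ELN and COL3A1. COL1A2, a chain of type I collagen, was at 188, 293, 254, 265 and 173 FPKM at 0 h and at 830, 825, 1077 and 1054 FPKM at 216 h (log2 fold change 2.03, adjusted p = 0.000307). POSTN (periostin) rose by 1.95, ELN (elastin) by 1.82 and COL3A1 by 1.66. DCN, the proteoglycan decorin from the list of negative regulators, rose by 2.29, the largest of the 64 values on the log2(FPKM + 1) scale. On the mean FPKM scale ELN was 7.52 times and DCN 4.91 times as high as at 0 h. The ELN ratio starts from a mean of 0.64 FPKM at 0 h. Outside 216 h, the highest ELN values were 1.06 FPKM at 0 h, 0.610 at 24 h and 1.65 at 96 h. ELN passed the filter only through the 216 h tumors, so its entry into the test was not independent of its rise. The other higher targets were COL1A1, FN1, TPM1, JUNB, TIMP3 and MMP2, with log2 fold changes from 0.46 to 1.25. TIMP3 lost its call under all 3 other scalings (adjusted p from 0.125 to 0.355) and TPM1 with median scaling (adjusted p = 0.0614).

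CCN2, CDKN1A and NEDD9 were the target genes that fell. CCN2 (CTGF), a secreted matricellular protein, went from a mean of 53.5 FPKM at 0 h to 28.0 at 216 h (log2 fold change -0.94, adjusted p = 0.00253). CDKN1A, the cell cycle inhibitor p21, went from 70.6 to 52.4 FPKM (-0.43, adjusted p = 0.00962). All 4 tumors of 216 h were below all 5 of 0 h for both genes. Several list genes are also among the effectors that the study assigns to YAP1 and TEAD, so they are not read here as TGF-beta genes alone. ELN, LTBP4, KLF10 and TSC22D1 are on its list of negative effectors, and CCN2, THBS1, TPM1, TAGLN, FST, FSTL3 and NEDD4L on that of positive ones. Of the list genes, the naming rule chose ENG, CCN2, CDKN1A, DCN, COL1A2, POSTN, ELN and COL3A1, and the others named were chosen after their values were seen, to complete small counts.

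**Figure D4:**
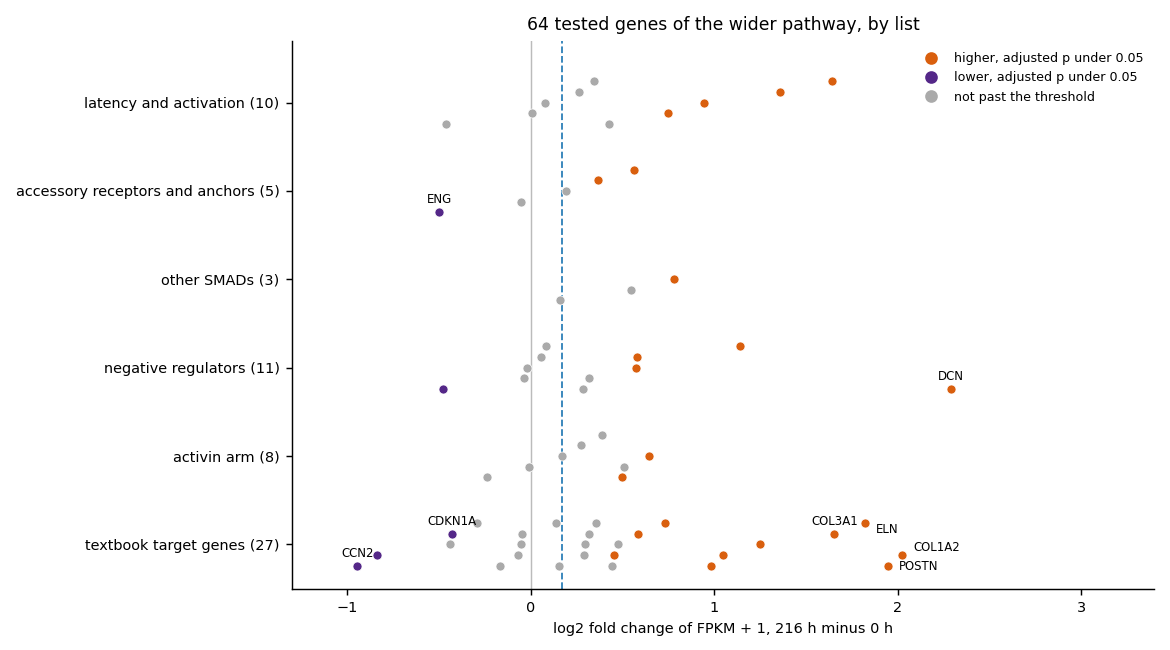
Log2 fold change of FPKM + 1 at 216 h minus 0 h (horizontal axis) of the 64 tested genes in 6 lists (rows, with the number tested), where each point is a gene and the dashed line is the median of all tested genes at 0.17. Names are those of the largest changes whose groups do not overlap, with DCN at 2.29 and CCN2 at -0.94 at the ends.

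**Figure D5:**
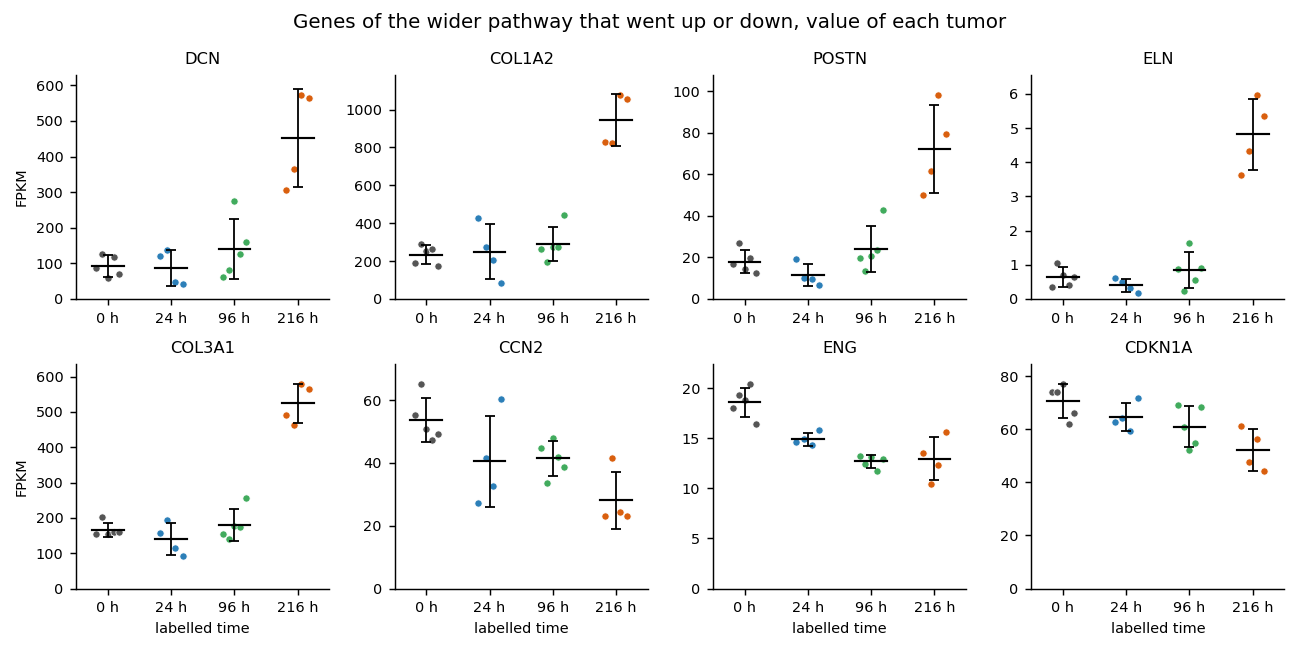
FPKM (vertical axes, from 0) of 8 genes of the wider pathway in each tumor (points) by labelled time, with the mean (bar) and the SD (whiskers). The 4 tumors of 216 h lie above all of 0 h for DCN, COL1A2, POSTN, ELN and COL3A1, and below all of 0 h for CCN2, ENG and CDKN1A.

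Many markers of fibroblasts and leukocytes were higher in the same group. The tested markers of endothelial and muscle cells were too few for a contrast with them. Which RNA came from host and which from tumor cells was not tested. Of 12 fibroblast markers, 9 were higher and 1 (THY1) lower at 216 h than at 0 h, beside 19.7% and 3.6% of all tested genes. Their summed level was between 3729 and 4462 FPKM at 216 h against 1411 to 2017 at 0 h, most of it from COL1A1, COL1A2, COL3A1 and DCN. COL1A1, COL1A2, COL3A1, DCN and POSTN stand on that list and on the pathway lists, so both counts share them. Of 16 leukocyte markers, 13 were tested, 8 were higher and 1 (CD68) lower, beside the same 19.7% and 3.6%, with sums of 126 to 218 FPKM against 66.1 to 103. Of 9 endothelial markers, 1 of 6 tested was higher (CDH5), beside 19.7% of all tested genes, with overlapping sums of 12.7 to 21.1 against 12.1 to 16.0. Of 6 muscle markers, 0 of 4 tested were called, again beside 19.7% and 3.6%, with overlapping sums of 5.53 to 76.1 against 2.13 to 44.0. The log2 fold changes of these 4 were 0.53 (DES), 1.07 (CKM), 1.08 (ACTA1) and 1.31 (TNNT3), with limma's adjusted p from 0.1005 to 0.393. The defining genes PTPRC, PECAM1 and PDGFRA had means of 4.81, 0.216 and 10.3 FPKM at 216 h, against 2.50, 0.0940 and 7.64 at 0 h. PTPRC was called higher (0.73, adjusted p = 0.0240), PDGFRA was not called (0.42, adjusted p = 0.369) and PECAM1 was too low to be tested. At 216 h, 0 markers of these 4 lists were at 0 in all 4 tumors. At 24 h, 0 markers of these 4 lists were called, beside 0.00879% of all tested genes higher and 0.149% lower. At 96 h it was again 0, beside 0.316% and 1.06%. Of the mesothelial markers, 5 of 10 were tested. KRT8 and KRT18, keratins of simple epithelia and mesothelium, were lower than at 0 h at 96 h (-0.56, adjusted p = 0.00996, and -1.22, adjusted p = 5.76e-05). They were also lower at 216 h (-0.79, adjusted p = 0.000114, and -1.34, adjusted p = 1.12e-05). Of all tested genes, 1.06% were lower at 96 h and 3.6% at 216 h. KRT8 is also among the study's positive effectors of YAP1 and TEAD. At 96 h the calls cannot be told apart from the split by genes at 0. VIM was higher at 96 h (0.35, adjusted p = 0.0337) and not past the threshold at 216 h (-0.072, adjusted p = 0.579). The sum of this list was between 1411 and 1568 FPKM at 216 h against 1612 to 1925 at 0 h. Most of this sum was VIM, with means of 1291 FPKM at 216 h and 1359 at 0 h, so it does not stand for all 10 markers. How mouse reads were treated is not given in the sources used here, and the part of these cells in the rise of TGFB3, the receptors, SMAD7 and the matrix genes was not tested.

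Among tumors with more genes at 0, 3 of 216 h against 5 of 0 h, 5 of the 9 tested members lay above 0 h without overlap, beside 19.1% of all tested genes. They were TGFB3, TGFBR1, TGFBR2, SMAD7 and SKIL. Their means were higher by 290%, 123%, 39.2%, 271% and 40.4% (exact permutation test, two-sided, p = 0.0357 for each, the smallest possible). TGFBR3 was higher by 84.6% (exact permutation test, p = 0.0714) and SMAD3 by 41.6% (exact permutation test, p = 0.107). The comparison of 216 h with 96 h could not be repeated this way, since no tumor of 96 h is in that set. With the set as a covariate in limma, all 4 of its member calls were lost, with log2 fold changes of 1.22 for TGFB3, 0.51 for TGFBR1, 0.53 for TGFBR2 and 0.62 for SMAD7 and adjusted p from 0.124 to 0.372. With median scaling this comparison also lost TGFBR1 (0.65, adjusted p = 0.0519) and SMAD7 (0.70, adjusted p = 0.0792), and SMAD7 was lost with quantile normalization (adjusted p = 0.0686) and without the mitochondrially encoded genes (adjusted p = 0.0599).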

How the data were processed

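FPKM values of 18 tumors were used as deposited by the authors in 1 table of 20555 rows and 20257 gene identifiers. Per the labels, the processing notes name STAR and GRCh38. The quantification tool, the annotation and the handling of mouse reads are not given in the sources used here. Depth is unknown, since the table holds no counts, and 509 rows hold a value above 0 and below 1e-05, which is no whole fragment. The 4 empty cells were read as 0. No 2 of the 153 pairs of tumors held identical values, and p-values measure the spread between tumors of single mice.

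The 11379 rows that reached 1 FPKM in 4 or more tumors were tested on log2(FPKM + 1) with limma 3.58.1 in R 4.3.3 (eBayes with trend), with all 4 groups in 1 fit and Benjamini-Hochberg adjustment over all tested genes at a threshold of 0.05. The pseudocount of 1 understates changes of low genes. TGFB2 was tested with an exact permutation test, two-sided, on the log scale (scipy 1.17.1). Alternatives were a pseudocount of 0.1, no filter, a filter of 5 FPKM, 3 other scalings, eBayes without trend, a fit of both groups alone, a covariate for the tumors with more genes at 0, and leaving out each tumor. The 10 genes and all lists were chosen with earlier results of these data known, and 1 gene of the lists is not reported here. Named were all 10 genes and, from the lists, up to 5 genes per comparison and direction with the largest called change and groups that do not overlap, besides YAP1, CYR61 and CTGF as a check and the 3 genes most alike to each tested member. Figures were drawn with matplotlib 3.10.9.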

Additional observations from a re-analysis of the deposited data

How the results depend on the processing

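At 216 h against 0 h, TGFB3, TGFBR1, TGFBR3 and SMAD7 were called higher under every alternative that could be computed, 18 for the first 3 genes and 17 for SMAD7, which a filter of 5 FPKM leaves out. The number of called members was 6, and 5 to 7 when 1 tumor was left out. At 216 h against 96 h it was 4, and 3 to 4 when 1 tumor was left out, but 0 with a covariate for the tumors with more genes at 0. At 96 h it was 0, and 1 with median scaling, 2 with quantile normalization and 2 without the mitochondrially encoded genes. It was 0 to 0 without 1 tumor at 24 h and at 96 h. Of the 74 list genes, 0 were called at 24 h, 1 at 96 h, 28 at 216 h and 17 from 96 h to 216 h. These counts were 0 to 1, 1 to 3, 22 to 28 and 14 to 19 without 1 tumor. With a filter of 5 FPKM they were 1 at 24 h and 3 at 96 h. At 96 h they were 4 with median scaling, 4 with quantile normalization and 2 without the mitochondrially encoded genes. The covariate left 2 calls from 96 h to 216 h. The log2 fold change of TGFB2 without 1 tumor ran from -0.21 to -0.00070 at 24 h, from 0.070 to 0.29 at 96 h, from 0.23 to 0.45 at 216 h and from 0.092 to 0.28 between 96 h and 216 h.

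Signs changed only for values that were not past the threshold. With the covariate, SKIL became -0.13 and TGFBI 0.038 at 24 h, and SMAD3 became -0.055 and TGFBI -0.15 from 96 h to 216 h. With median scaling TGFB1 became -0.092 at 216 h against 0 h. From 96 h to 216 h SMAD3 became -0.22, -0.21 and -0.15, and SKIL -0.14, -0.14 and -0.071, with median scaling, quantile normalization and without the mitochondrially encoded genes. Without 1 tumor the values ran at 24 h from -0.25 to 0.19 for TGFB3, from -0.058 to 0.21 for SMAD7, from -0.062 to 0.28 for SKIL and from -0.37 to 0.025 for TGFBI, and from 96 h to 216 h from -0.088 to 0.12 for SMAD3. The causes were not tested. The trend, the fit of both groups alone, quantile normalization and the covariate could not be applied to the permutation test of TGFB2. No paired analysis was possible because each mouse gave 1 tumor to 1 group and replicate numbers follow the order of the samples. With unknown depth, the precision of low values such as those of TGFB2 cannot be given.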
